A study of Mus musculus with 9 samples.

Results

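The genes described here encode 10 enzymes of threonine, glycine and one-carbon catabolism: Tdh, Gcat, Gldc, Dmgdh, Sardh, Bhmt, Bhmt2, Shmt1, Shmt2 and Mthfd2. They were taken by name, and all 10 were found among the 29069 genes of the deposited table. The names were chosen by differences in normalised read counts between the media, with earlier results of these same samples known. Their levels and differences are therefore given as a description, with standard errors but without p-values. Counts of members past the thresholds used for all genes are a description as well, and not a test.

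The cells were D3, a long-established line of mouse embryonic stem cells (mESC) that had been adapted to feeder-free culture. They were used at passages p5-p8 and kept for 24 h in 1 of 3 media, with 3 samples each. The ground-state medium (GS) was serum-free NDiff N2B27 with 1 μM of the MEK inhibitor PD0325901, 3 μM of the GSK-3 inhibitor CHIR99021 and 20 ng/mL of leukaemia inhibitory factor (LIF). Differentiation medium (DM) was DMEM with 10% fetal bovine serum (FBS) and neither the inhibitors nor LIF, and the nitric oxide medium (NO) was DM with 250 μM of DETA/NO, which releases nitric oxide. DM therefore differed from GS in basal medium, serum, inhibitors and LIF at once, and for genes of amino acid metabolism these cannot be told apart.

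Mouse ES cells are known for a high activity of threonine dehydrogenase, which starts the breakdown of threonine in mitochondria, and for their need of threonine in culture. Threonine, serine and choline can all be broken down to glycine, and glycine, serine and the methyl groups of choline supply one-carbon units, which are used for purines, thymidylate and methionine. The mitochondrial and cytosolic compartments each have their own folate enzymes, and serine, glycine and formate pass between them.

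Values are normalised read counts per gene, that is, reads scaled by the authors for the depth of each library and rounded. Assigned reads were estimated at about 14300000 to 27100000 per sample, and a single read was worth 0.70 to 1.32 normalised counts, so values of a few units rest on a few reads. The lowest Spearman coefficient between replicates, across genes, was 0.986 for GS, 0.979 for DM and 0.958 for NO. NO replicate 2 stood apart. The summed level of 8 ES cell markers, such as Pou5f1, Nanog and Zfp42, was 81845 to 86234 in GS and 77585 to 88137 in DM. It was 80862, 48665 and 77499 in NO replicates 1, 2 and 3. Single markers differed from the sum: Sox2 was highest in NO replicate 2, at 2566, 3122 and 2749 in the same order. Nanog at 7678 and Klf4 at 2433 in NO replicate 2 lay within their DM ranges of 7596 to 8190 and 1805 to 2437. All 8 had a mean over 5 normalised counts. The lists for other cell types were at their highest in the same library: 712 for endoderm against 113 to 205 in GS and DM (5 of 8 genes with a mean over 5), 2696 for trophoblast against 947 to 1570 (8 of 8) and 466 for fibroblasts against 136 to 276 (5 of 8). The sum of 5 hepatocyte genes, of which 2 had a mean over 5, was 94 there and 24 to 66 in GS and DM. The endoderm marker Afp was at 0 in every GS and DM sample. Genes within a list did not all move together. In NO replicate 2, the trophoblast markers Krt7 and Krt18 were at 484 and 604, against 4 to 15 and 86 to 133 in GS. Cdx2 and Eomes of the same list were at 14 and 91, against 46 to 75 and 229 to 308. The fibroblast markers Col1a1 and Col3a1 were at 88 and 8 there, against 13 to 21 and 6 to 16 in GS. Pdgfra, at 170 there, is in both the endoderm and the fibroblast sums. In bulk RNA, fewer cells of a type and less RNA per cell cannot be told apart.

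Among the 9 members that passed the minimum mean of 5, NO replicate 2 was the lowest NO sample for all 9, whereas this held for 37.1% of the 18156 genes tested. Differences of single members that involve NO are therefore given with and without it. Whether the marker genes of other cell types play a part in them was not tested.

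The 3 members with the largest differences from GS lie side by side on chromosome 13 (GRCm38, GENCODE M21). Bhmt (ENSMUSG00000074768, 93616675 to 93637961, minus strand), Bhmt2 (ENSMUSG00000042118, 93655720 to 93674302, minus strand) and Dmgdh (ENSMUSG00000042102, 93674433 to 93752833, plus strand) span 136.2 kb. Dmgdh and Bhmt2 are transcribed away from each other, and 130 bases separate their annotated starts. The RefSeq promoter window of Dmgdh, from 250 bases before to 50 bases after its start (chr13:93674186-93674485, plus strand, GRCm38.p6), shares 233 of its 300 bases with that of Bhmt2. It is shown because it holds both starts, with the 133 bases between the RefSeq starts in capitals:

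Dmgdh and Bhmt2: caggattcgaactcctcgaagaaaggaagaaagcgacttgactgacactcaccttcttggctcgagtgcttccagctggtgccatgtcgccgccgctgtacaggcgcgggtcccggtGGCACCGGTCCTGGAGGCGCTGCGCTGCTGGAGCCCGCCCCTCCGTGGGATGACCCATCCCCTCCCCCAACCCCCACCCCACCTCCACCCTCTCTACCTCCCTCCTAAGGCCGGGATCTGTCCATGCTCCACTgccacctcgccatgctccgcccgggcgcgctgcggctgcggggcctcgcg

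The window of Bhmt (chr13:93637709-93638008, minus strand, GRCm38.p6) is shown for contrast, since its level went with that of its neighbours while its sequence differs. The capitals mark a match to the letters TCAAGGTCA, the element bound by estrogen-related receptors such as Esrrb:

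Bhmt: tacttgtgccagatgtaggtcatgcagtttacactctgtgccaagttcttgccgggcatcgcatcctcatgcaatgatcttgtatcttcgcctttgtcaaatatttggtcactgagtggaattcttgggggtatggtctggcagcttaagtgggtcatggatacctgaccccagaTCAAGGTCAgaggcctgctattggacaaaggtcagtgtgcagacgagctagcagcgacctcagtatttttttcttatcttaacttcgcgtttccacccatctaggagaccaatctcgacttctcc

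The Dmgdh and Bhmt2 windows were rich in G and C, at 68.0% and 73.7% with 25 and 26 CpG dinucleotides, against 48.0% and 8 CpG in the Bhmt window. The medians of all 32817 windows were 52.7% and 7. The letters TCAAGGTCA, searched on both strands, stood 75 bases before the RefSeq start of Bhmt and in 0.424% of all windows, but in the window of no other member. In GENCODE the start of Bhmt lies 203 bases further upstream. The GC box GGGCGG was in the windows of 5 of the 9 members that have one (Gcat, Gldc, Dmgdh, Bhmt2 and Shmt1) and in 35.6% of all windows. The matches in the Dmgdh and Bhmt2 windows are the same sites, since these windows overlap. The octamer ATTTGCAT (1.74% of all windows), the TCF/LEF letters CTTTGAT (3.73%), the C/EBP-ATF letters TGATGNAAT (0.966%) and TATAAA (13.6%) were in none of the member windows, and the E-box CACGTG (7.15%) was in that of Gcat. The motifs were chosen with the sequences in view, and a match describes letters only.

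Dmgdh encodes the mitochondrial dehydrogenase that turns dimethylglycine into sarcosine and passes a methyl group to folate. It had 838, 803 and 869 normalised counts in GS medium replicates 1, 2 and 3, 144, 158 and 142 in DM, and 293, 254 and 292 with NO. The 3 media did not overlap, with NO between DM and GS. On the log2(normalised count + 1) scale, on which all fold changes here were estimated with limma, DM was below GS by -2.49 ± 0.14 (SE) and NO below GS by -1.58 ± 0.14, that is, 5.63-fold and 2.99-fold lower. NO was above DM by 0.91 ± 0.14. With NO replicate 2 left out, the values were -1.51 against GS and 0.98 against DM.

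Bhmt encodes betaine-homocysteine methyltransferase, which makes methionine from homocysteine and releases the dimethylglycine that Dmgdh uses. It had 136, 112 and 159 normalised counts in GS medium, 27, 25 and 27 in DM, and 64, 28 and 38 with NO. Bhmt2, which encodes a related methyltransferase that takes its methyl group from S-methylmethionine, had 265, 174 and 228 in GS, 39, 41 and 48 in DM, and 76, 38 and 72 with NO. For both genes every GS sample lay above all DM and NO samples. All NO samples of Bhmt lay above DM, the nearest at 28 against 27, whereas NO replicate 2 of Bhmt2 lay below DM.

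The log2 fold change in DM vs GS was -2.31 ± 0.31 (SE) for Bhmt and -2.34 ± 0.29 for Bhmt2, close to that of Dmgdh. In NO vs GS the values were -1.69 ± 0.31 and -1.87 ± 0.29, and -1.43 and -1.55 without NO replicate 2. In NO vs DM they were 0.62 ± 0.31 and 0.47 ± 0.29, and 0.88 and 0.79 without that library. With quantile normalisation the last pair was 0.29 and 0.14. Across the 9 samples, log2 values of the 3 genes correlated with a Pearson r of 0.954 to 0.978, as a description of 9 libraries in 3 media.

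**Figure D1:**
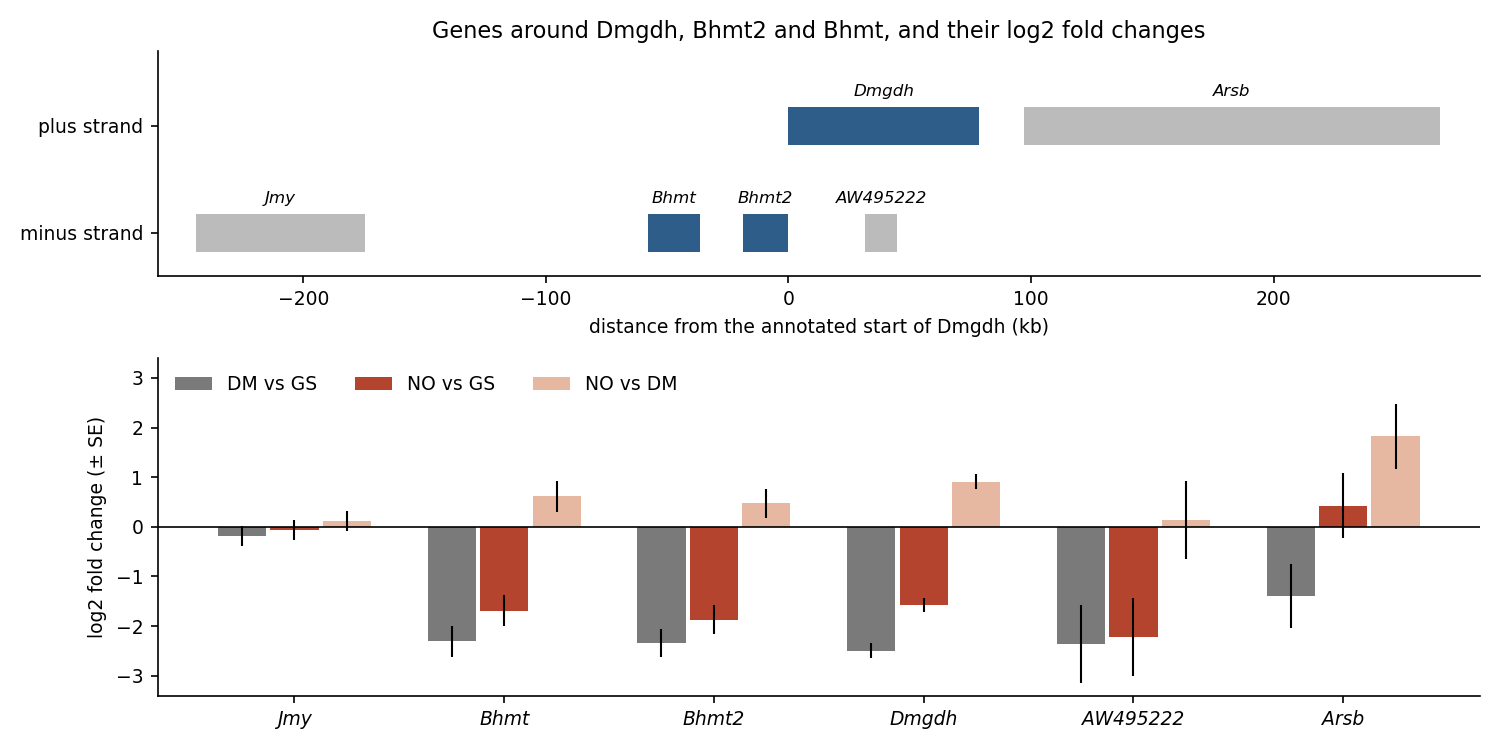
Upper panel, the tested genes within 200 kb of Bhmt, Bhmt2 and Dmgdh by distance from the Dmgdh start (kb) and strand, with the 3 members in blue. Lower panel, log2 fold change of each gene (bars, ± SE) in the 3 comparisons. The 3 members were lower in DM and in NO than in GS by 1.58 or more on the log2 scale. So was AW495222, with wide errors, a gene that passed the minimum mean of 5 only through GS. Arsb was at -1.39 in DM vs GS and Jmy lay within 0.18 of no difference.

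Within 200 kb of these genes, 15 genes are annotated, 8 were in the table and 6 had a mean over 5. Jmy, a regulator of actin and p53 that lies 116.9 kb beyond Bhmt, had 704, 740 and 627 normalised counts in GS medium, 614, 698 and 526 in DM and 561, 915 and 562 with NO. Its log2 fold change was -0.18 for DM over GS and -0.06 for NO over GS (adjusted p-values from limma 0.68 and 0.862). Arsb, a lysosomal sulfatase gene that starts 18.8 kb beyond the end of Dmgdh, was low throughout, at 13 to 16 in GS, 1 to 10 in DM and 10 to 35 with NO. Its log2 fold change was -1.39 for DM over GS and 1.82 for NO over DM (adjusted p-values 0.258 and 0.0795). AW495222, whose exons overlap those of Dmgdh on the opposite strand, had 8, 13 and 15 in GS, 2, 4 and 0 in DM and 3, 0 and 4 with NO. Its log2 fold change was -2.36 for DM over GS and -2.22 for NO over GS, with adjusted p-values from limma of 0.105 and 0.0653. With a mean of 5.44 over all samples, AW495222 passed the minimum mean of 5 only through GS. Its fall from GS is therefore not independent of that filter. The authors left out reads that overlapped several genes, but the use of strand was not stated for the counts, so genes with exons on both strands are uncertain. This holds also for Bhmt, whose exons overlap those of Gm15622.

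Of the 9 tested members, these 3 passed both thresholds of the fit over all genes in DM vs GS (adjusted p-value below 0.05, change of 2-fold or more), all as lower in DM. The background was 1.27% of all genes called lower and 2.94% called higher. The same 3 were called lower in NO vs GS, where 1.64% of all genes were called lower and 10.1% higher. Higher calls were 86.0% of all calls there, and 67.5% with quantile normalisation. Without NO replicate 1, 6 members were called there, with Gcat, Mthfd2 and Shmt2 added. Without GS replicate 2 or without NO replicate 3, 4 members were called, with Gcat added. These counts describe members that were chosen with such results known. The median log2 fold change of the 9 members was -0.08 for DM over GS and -0.92 for NO over GS, beside -0.001 and -0.016 over all genes.

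Sardh encodes sarcosine dehydrogenase, the step after Dmgdh, and its product is glycine. It was barely detected: 0, 1 and 0 normalised counts in GS medium, 1, 2 and 11 in DM, and 1, 3 and 0 with NO, a few reads at most in 8 of the 9 samples. Sardh (ENSMUSG00000009614, chromosome 2, 27188393 to 27248337, minus strand) was not tested. Pipox, a peroxisomal enzyme that oxidises pipecolate and also sarcosine, was present in every sample at 907 to 1034 in GS, 1395 to 1608 in DM and 640 to 1145 with NO. It was lower in NO than in DM by -0.67 ± 0.20 (SE), an adjusted p-value of 0.0448 from limma, under a 2-fold change. NO replicate 2 was its lowest NO sample, at 640 beside 1145 and 1092, and no fit without that library is given.

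**Figure D2:**
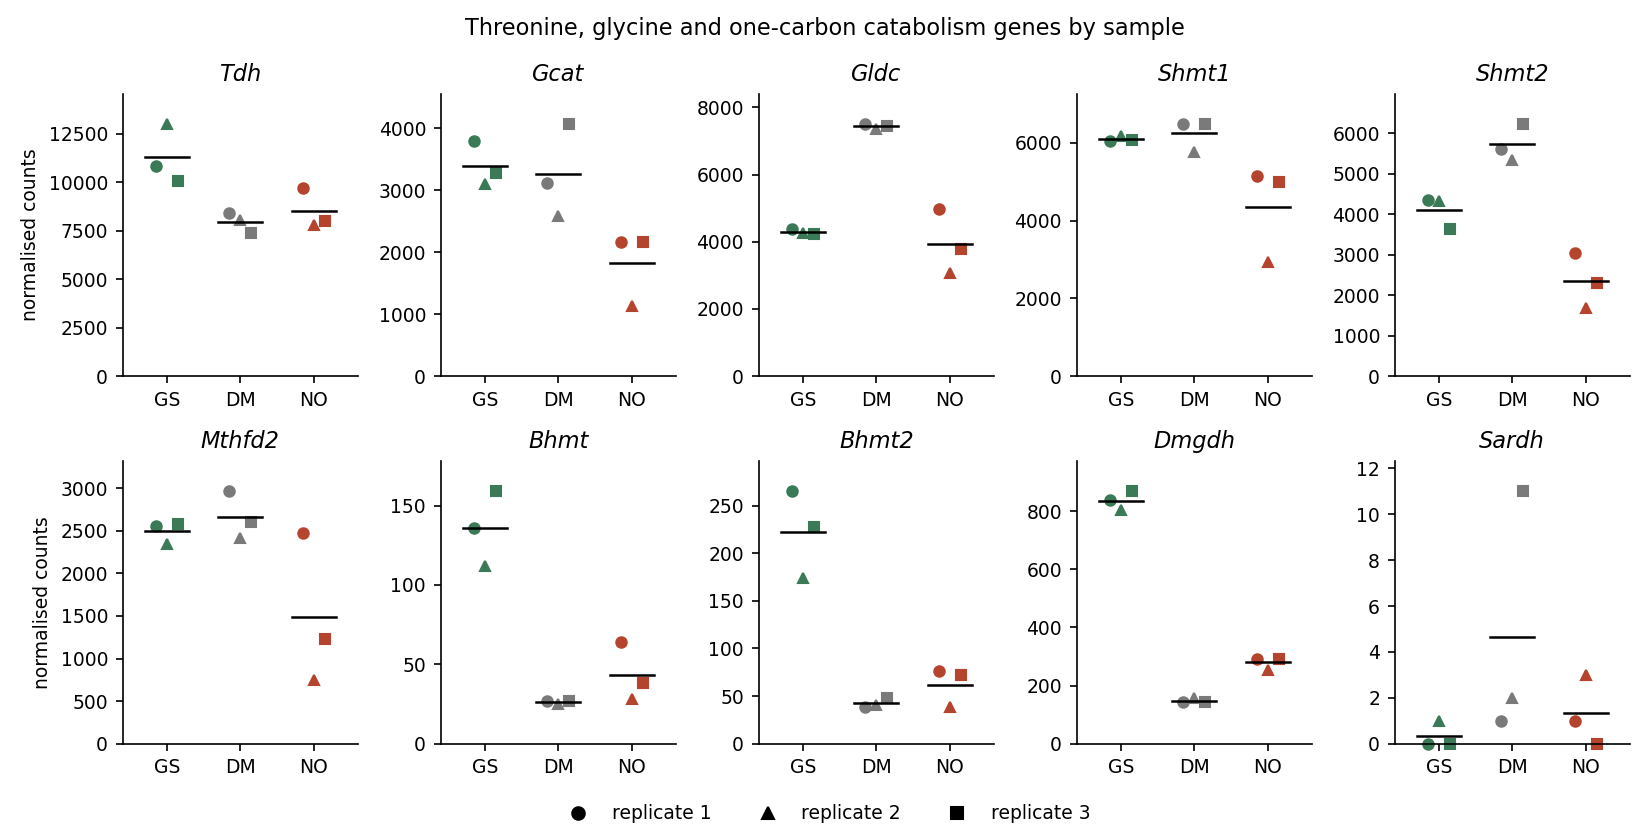
Normalised counts of the 10 members in each sample, by medium, with 1 symbol per replicate number and a line at the mean of 3 samples. Bhmt, Bhmt2 and Dmgdh were highest in GS, Gldc was highest in DM, Sardh was at 0 to 11, and for the other 9 genes NO replicate 2 (triangles) was the lowest NO sample.

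Tdh encodes threonine dehydrogenase, and was the highest member in every medium per length of exon. Its level was 4326 ± 588 normalised counts per kb in GS, 3044 ± 203 in DM and 3251 ± 398 with NO (SD, n = 3). In GS it was followed by Shmt1 at 1569 ± 17.0, Gcat at 1421 ± 152 and Shmt2 at 1320 ± 133 per kb, which are within the spread of each other except for Shmt1 and Shmt2. Mthfd2 at 715 ± 38.2 and Gldc at 705 ± 11.2 per kb did not differ beyond their spread. Dmgdh at 245 ± 9.7, Bhmt2 at 90.1 ± 18.6, Bhmt at 23.6 ± 4.1 and Sardh at 0.06 ± 0.11 per kb came last in that order. In DM the next genes were Shmt2 at 1844 ± 148, Shmt1 at 1608 ± 106, Gcat at 1365 ± 317 and Gldc at 1222 ± 12.9 per kb, and with NO they were Shmt1 at 1121 ± 316, Gcat at 764 ± 251, Shmt2 at 755 ± 221 and Gldc at 647 ± 158. In both of these orders, neighbours were apart by less than their SDs added up.

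Tdh had 10855, 13025 and 10054 normalised counts in GS medium, 8426, 8073 and 7380 in DM, and 9696, 7780 and 8031 with NO. Every DM and NO sample lay below every GS sample, and DM and NO overlapped. The log2 fold change (± SE) was -0.50 ± 0.15 for DM over GS, -0.41 ± 0.15 for NO over GS and 0.09 ± 0.15 for NO over DM, so both differences from GS were smaller than 1.5-fold. With NO replicate 2 left out, the last pair was -0.35 and 0.15. With quantile normalisation NO vs GS was -0.17. Exons of Tdh (ENSMUSG00000021953, chromosome 14, 63492347 to 63509092, minus strand) overlap those of Gm17232 on the opposite strand.

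Gcat encodes the ligase that completes the breakdown of threonine, giving glycine and acetyl-CoA. It did not follow Tdh: it had 3791, 3096 and 3273 normalised counts in GS medium, 3114, 2581 and 4071 in DM, and 2162, 1131 and 2171 with NO. GS and DM overlapped, and every NO sample lay below all 6 others. The log2 fold change (± SE) was -0.95 ± 0.25 for NO over GS and -0.87 ± 0.25 for NO over DM, which became -0.64 and -0.56 without NO replicate 2. In DM vs GS it was -0.08 ± 0.25. Gcat (ENSMUSG00000006378, chromosome 15, 79030874 to 79038353, plus strand) shares exons with another model of the same name, so its counts carry that uncertainty. Across the 9 samples the log2 values of Gcat correlated with Tdh at r = 0.32, with Shmt1 at 0.95 and with Mthfd2 at 0.866.

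Gldc encodes the decarboxylase of the glycine cleavage system, the mitochondrial complex that breaks glycine down and loads its carbon onto folate. It had 4369, 4265 and 4240 normalised counts in GS medium, 7513, 7358 and 7460 in DM, and 4977, 3076 and 3776 with NO. All DM samples lay above all others, with replicates that differed little, whereas GS and NO overlapped. DM was above GS by 0.80 ± 0.16 (SE), a 1.73-fold difference, and NO was below DM by -0.95 ± 0.16, or -0.78 without NO replicate 2. In NO vs GS the difference was -0.15 ± 0.16, and 0.02 without that library. Gldc (ENSMUSG00000024827) lies on chromosome 19, 30098447 to 30175429, minus strand, and its exons overlap no other gene.

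The complex has 3 other parts. Gcsh, which carries the bound intermediate, had 2453 to 3042 normalised counts in GS medium, 2910 to 3431 in DM and 1410 to 2783 with NO. On the log2 scale it differed by 0.20 for DM over GS and -0.64 for NO over DM (adjusted p-values 0.666 and 0.0617), the same signs as for Gldc. Amt, the aminomethyltransferase, had 2778 to 2965, 2242 to 3047 and 2720 to 3395 in the same order. Its log2 differences were -0.173 for DM over GS and 0.255 for NO over DM, both opposite in sign to those of Gldc. Dld, a dehydrogenase that also serves other complexes, had 970 to 1263, 730 to 1110 and 887 to 985. It differed by -0.212 for DM over GS, opposite in sign to Gldc, and by -0.03 for NO over DM. None of the 3 passed an adjusted p-value of 0.05 in any comparison with limma, and their difference from Gldc was not tested.

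Shmt2 encodes the mitochondrial serine hydroxymethyltransferase, which splits serine into glycine and a one-carbon unit. It had 4344, 4337 and 3626 normalised counts in GS medium, 5621, 5340 and 6239 in DM, and 3055, 1682 and 2301 with NO. The 3 media did not overlap, with DM highest and NO lowest. DM was above GS by 0.49 ± 0.19 (SE) and NO below GS by -0.84 ± 0.19 on the log2 scale, or by -0.62 without NO replicate 2. NO was below DM by -1.33 ± 0.19, which is 2.51-fold, and by -1.11 without NO replicate 2. Exons of Shmt2 (ENSMUSG00000025403, chromosome 10, 127517123 to 127522444, minus strand) overlap those of Ndufa4l2 on the opposite strand.

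Shmt1 (ENSMUSG00000020534, chromosome 11, 60788104 to 60811718, minus strand) encodes the cytosolic form of the same enzyme, and its exons overlap those of Smcr8 on the opposite strand. It had 6043, 6169 and 6071 normalised counts in GS medium, 6486, 5768 and 6473 in DM, and 5136, 2942 and 4986 with NO. GS and DM overlapped, and every NO sample was lower than both. The log2 fold change (± SE) was 0.03 ± 0.19 for DM over GS, -0.53 ± 0.19 for NO over GS and -0.56 ± 0.19 for NO over DM. The last pair was -0.27 and -0.30 without NO replicate 2. The ratio of Shmt2 to Shmt1 normalised counts within a sample was 0.597 to 0.719 in GS, 0.867 to 0.964 in DM and 0.461 to 0.595 in NO, so that the 3 media did not overlap, with GS and NO nearly touching.

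Mthfd2 encodes the mitochondrial dehydrogenase and cyclohydrolase that oxidises methylene-tetrahydrofolate. It had 2556, 2341 and 2585 normalised counts in GS medium, 2964, 2417 and 2601 in DM, and 2479, 750 and 1227 with NO. NO replicate 1 lay within the range of GS and of DM, and NO replicates 2 and 3 lay far below. The log2 fold change (± SE) was 0.09 ± 0.32 for DM over GS, -0.92 ± 0.32 for NO over GS and -1.01 ± 0.32 for NO over DM. Without NO replicate 2 the difference was -0.51 against GS and -0.60 against DM, and for the latter without NO replicate 1 it was -1.47. Mthfd2 (ENSMUSG00000005667) lies on chromosome 6, 83305691 to 83325908, minus strand.

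**Figure D3:**
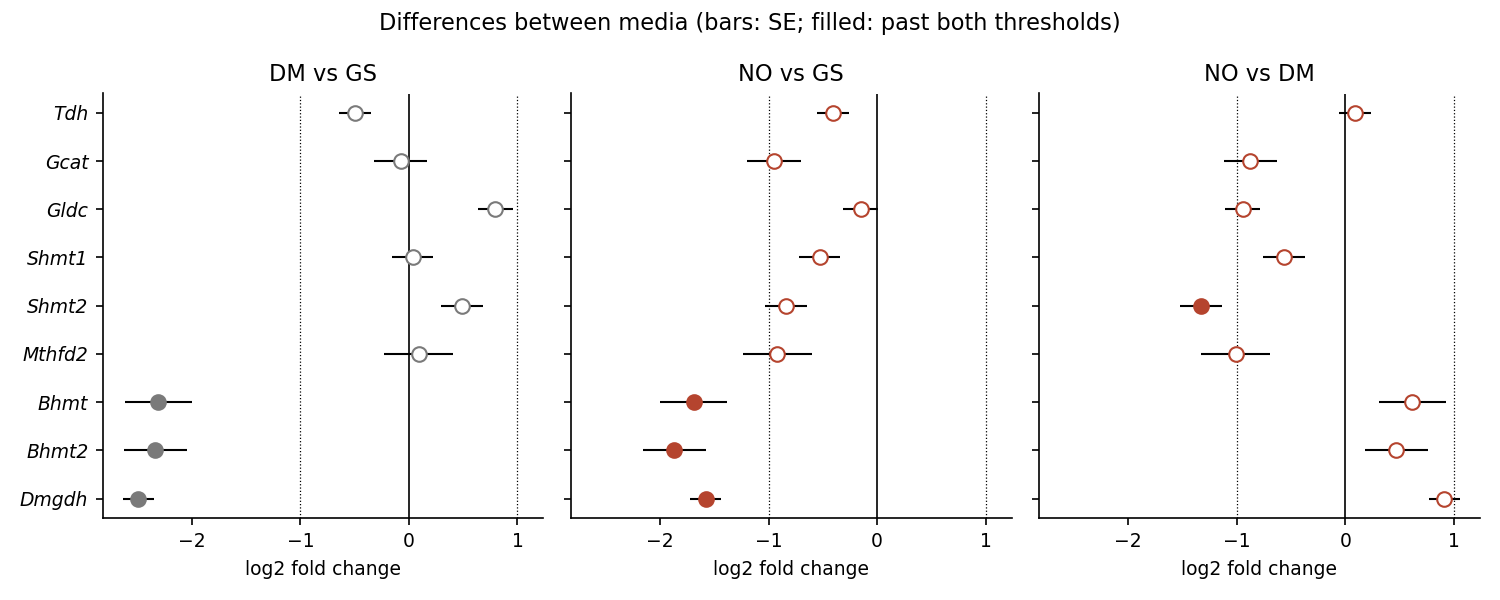
Log2 fold change (points, with SE bars) of the 9 tested members in DM vs GS, NO vs GS and NO vs DM. Filled points passed an adjusted p-value of 0.05 and a 2-fold change, which dotted lines mark. Bhmt, Bhmt2 and Dmgdh lay between -2.49 and -1.58 against GS and at 0.47 to 0.91 in NO vs DM, where Shmt2 alone was filled, at -1.33.

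In NO vs DM, Shmt2 was the member that passed both thresholds, against a background of 1.77% of all genes called lower and 6.78% called higher. Here too the count describes members that were chosen with such results known. Higher calls were 79.3% of all calls, and 65.1% with quantile normalisation. With the replicate number as a block, which pairs same-numbered samples of all 3 media, Mthfd2 passed as well and the count was 2. The count was also 2 without DM replicate 2 or without NO replicate 3, with Gcat added, and 4 without NO replicate 1, with Gcat, Gldc and Mthfd2 added. The median log2 fold change of the 9 members was -0.56, beside 0.001 over all genes. Bhmt, Bhmt2, Dmgdh and Tdh were above 0 in this comparison and the 5 other members below.

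The other genes of these pathways were 56 genes listed by function in 3 groups, of which 55 were in the table and 50 were tested. Like the members, the lists were made with earlier results known. Limma adjusted p-values over all 18156 genes are stated for them. None of the 50 was called in DM vs GS, where 9 had an unadjusted p-value under 0.05. Gnmt, which methylates glycine, was at 33 to 41 normalised counts in GS medium and 64 to 106 in DM (adjusted p-value 0.0717). It did not pass, but was called without NO replicate 1 or without NO replicate 2. It is named after its values were seen. In NO vs GS 6 of the 50 were called higher and 2 lower, and in NO vs DM 5 were higher and 3 lower. Over all genes 10.1% were higher and 1.64% lower in the first of these, and 6.78% and 1.77% in the second. The share of higher pathway genes was thus near that background. Of the genes called higher, Ftcd, Chdh and Sdsl passed the minimum mean of 5 only through NO, the medium where they were high. With quantile normalisation the split in NO vs GS was 3 higher and 5 lower, with Chdh, Folr2 and Sdsl lost and Aldh1l2, Gamt and Ggh gained as lower. The median log2 fold change of the 50 was -0.04 for DM over GS, -0.18 for NO over GS and -0.16 for NO over DM.

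Among the 13 tested genes of serine, glycine and threonine metabolism, 2 were lower and 1 was higher in NO than in DM, beside 1.77% and 6.78% of all genes. Psat1, the aminotransferase of serine synthesis, had 6237, 5893 and 7606 normalised counts in DM and 4272, 1287 and 2320 with NO. Its log2 fold change (± SE) was -1.48 ± 0.33 with an adjusted p-value of 0.0153, and -1.05 with 0.0216 without NO replicate 2. In NO vs GS it was -1.43 (adjusted p-value 0.0114), and -0.999 without that library, just short of a 2-fold change. Phgdh, which encodes the first enzyme of the same route and is named after its values were seen, had 2692, 2397 and 3694 in DM and 1961, 633 and 1037 with NO. It was lower in NO by -1.40 ± 0.33 (adjusted p-value 0.0191), and by -1.01 without NO replicate 2 (0.0411). The call of Phgdh was lost without DM replicate 1 or DM replicate 3, or without NO replicate 3, and with only the 6 samples compared, and that of Psat1 without DM replicate 3. Both were lost in a fit without a mean-variance trend. Psph, the last enzyme of serine synthesis, did not pass, at 1062 to 1247 in DM and 516 to 1182 with NO.

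Gatm, which uses glycine and arginine for the first step of creatine synthesis, rose in NO. It had 10, 12 and 19 normalised counts in GS medium, 6, 8 and 10 in DM, and 38, 142 and 59 with NO, with no overlap between NO and the other media. Its log2 fold change (± SE) was 2.29 ± 0.48 over GS and 2.97 ± 0.48 over DM (adjusted p-values 0.00715 and 0.00415). With NO replicate 2 left out, they were 1.77 and 2.45 (0.0187 and 0.00673). Sdsl, which resembles serine dehydratase, is named after its values were seen. It was called in NO vs GS at 9, 40 and 27 against 1, 1 and 5 (adjusted p-value 0.0366), and with the replicate block also in NO vs DM. The call over GS was lost without NO replicate 2 (0.119), and without GS replicate 1, GS replicate 2, DM replicate 1 or NO replicate 3. With means of 2.33 in GS and 4.33 in DM, Sdsl passed the minimum mean of 5 only through NO.

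Of the 20 folate genes, 3 were higher and 1 was lower in NO than in both other media, where 10.1% and 6.78% of all genes were higher and 1.64% and 1.77% lower, against GS and DM. Mthfd1l, the mitochondrial synthetase that releases formate and acts after Mthfd2, had 3146, 3446 and 3429 normalised counts in GS medium, 3832, 3519 and 3365 in DM, and 2141, 792 and 1287 with NO. It fell by 1.46 ± 0.27 (SE) on the log2 scale in NO vs DM and was at -1.36 in NO vs GS (adjusted p-values 0.00725 and 0.00543). Without NO replicate 2 the values were -1.10 and -1.01 (0.00554 and 0.00462). Its cytosolic counterpart Mthfd1 had 9684 to 10484 in GS, 10006 to 10336 in DM and 10162 to 11857 with NO and passed in no comparison. The ratio of Mthfd1l to Mthfd1 was 0.325 to 0.371 in all GS and DM samples and 0.211, 0.067 and 0.118 in NO replicates 1, 2 and 3.

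Aldh1l1, the cytosolic dehydrogenase that removes one-carbon units from folate as carbon dioxide, moved the other way. It had 1097, 826 and 897 normalised counts in GS medium, 733, 674 and 663 in DM, and 1609, 4834 and 2883 with NO. Its log2 fold change (± SE) was 2.03 ± 0.30 for NO over DM and 1.59 ± 0.30 for NO over GS (adjusted p-values 0.00303 and 0.00434). Without NO replicate 2 the values were 1.64 and 1.21 (0.00171 and 0.00403). Aldh1l2, the mitochondrial form, had 168 to 196 in GS, 104 to 117 in DM and 76 to 147 with NO. In NO vs GS its adjusted p-value was 0.0293 at under a 2-fold change. Exons of Aldh1l1 overlap those of Gm45901 and of Gm15756, so its counts carry that uncertainty.

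**Figure D4:**
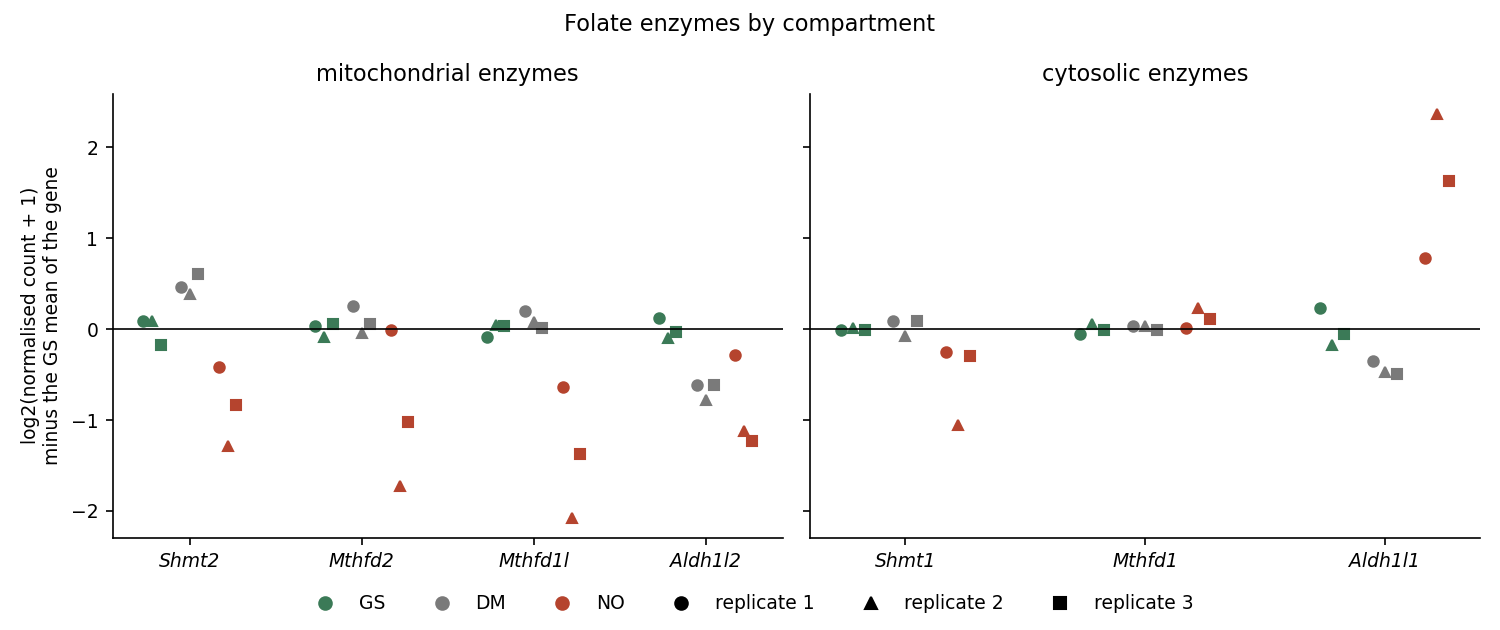
Log2(normalised count + 1) of each sample minus the GS mean of the gene, for 4 mitochondrial and 3 cytosolic folate enzymes, by medium (colour) and replicate (symbol). In NO, the mitochondrial Shmt2 and Mthfd1l and the cytosolic Shmt1 were below every GS and DM sample, Mthfd1 stayed near 0, and Aldh1l1 lay above, most so in replicate 2.

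In some of these genes, picked after their values were seen, the NO replicates kept 1 order. Mthfd2, Mthfd1l, Shmt2, Psat1 and Phgdh were highest in NO replicate 1, lower in replicate 3 and lowest in replicate 2, and Aldh1l1 and Gatm had the reverse order. Not all genes named here kept either order: Gcat had 2162, 1131 and 2171 in NO replicates 1, 2 and 3, and Amt 2720, 3020 and 3395. Markers of ES cells summed to the least, and those of endoderm and trophoblast to the most, in the same replicate 2. Any link between the markers and these genes was not tested. Of the 50 pathway genes, 60.0% were lowest and 24.0% highest in NO replicate 2 among the NO samples, beside 37.1% and 41.8% of all genes tested.

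Folr2, a folate receptor, was called at 50, 132 and 75 normalised counts in NO against 44, 22 and 30 in DM and 25, 23 and 30 in GS (adjusted p-values 0.0379 and 0.0137). In NO vs DM the call was lost with the replicate block (0.0588) and without NO replicate 2 (0.129). Of the fits that left out 1 library, it was kept there without DM replicate 1 and without NO replicate 1. Folr1, the more abundant receptor, had 869 to 1051 in GS, 1229 to 1469 in DM and 1437 to 1600 with NO. It was above GS by 0.50 in DM and by 0.66 in NO (adjusted p-values 0.0439 and 0.00625), each under a 2-fold change. Ftcd, which passes one-carbon units from histidine to folate, was at 0 in all GS samples, at 0, 1 and 0 in DM and at 5, 28 and 13 with NO. Its adjusted p-values were 0.00504 and 0.0128, and 0.0247 and 0.0591 without NO replicate 2. The call over DM was also lost without NO replicate 3. No fold is given, since both other media were at or near 0. With a mean of 5.22 over all samples, Ftcd passed the minimum mean of 5 only through NO. Its call as higher in NO is therefore not independent of that filter.

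Of the 17 tested genes of methionine, betaine and transsulfuration metabolism, Chdh was called. It encodes choline dehydrogenase, which starts the route from choline to betaine, the methyl donor of Bhmt. It had 0, 1 and 1 normalised counts in GS medium, 0, 0 and 0 in DM, and 5, 46 and 7 with NO (adjusted p-values 0.0227 and 0.0147 in NO vs GS and NO vs DM). Without NO replicate 2 these were 0.102 and 0.0551, and the call over GS was also lost when any of the GS replicates was left out. With a mean of 6.67 over all samples, Chdh passed the minimum mean of 5 only through NO, mostly through NO replicate 2. Its call as higher in NO is therefore not independent of that filter. Etfdh, which takes the electrons that Dmgdh and Sardh release to the respiratory chain, had 653, 598 and 717 in GS, 682, 667 and 510 in DM, and 800, 1625 and 1028 with NO. It was above DM by 0.84 and above GS by 0.75 (adjusted p-values 0.0325 and 0.0389), under a 2-fold change. NO replicate 2 was the highest sample of Etfdh, and no fit without that library is given. Mtr, the methionine synthase that uses folate in place of betaine, had 2064 to 2135, 2073 to 2375 and 2019 to 2320 normalised counts in that order of media, and passed in no comparison.

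**Figure D5:**
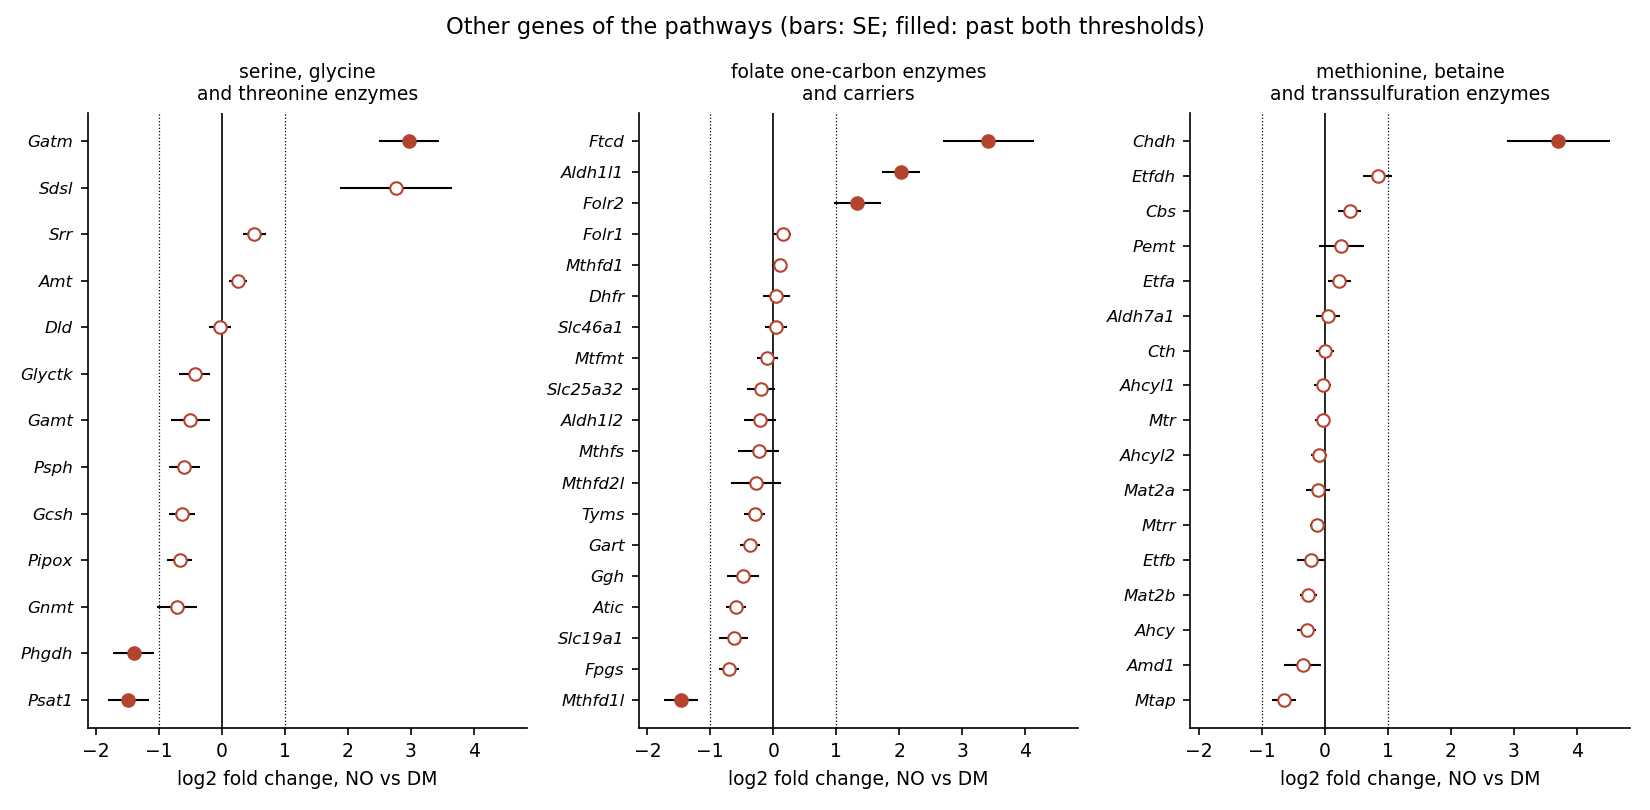
Log2 fold change in NO vs DM (points, with SE bars) of the tested pathway genes in 3 groups, except 1 that is not shown. Filled points passed an adjusted p-value of 0.05 and a 2-fold change, which dotted lines mark: Gatm, Ftcd, Aldh1l1, Folr2 and Chdh as higher, and Phgdh, Psat1 and Mthfd1l as lower.

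The number of pathway genes called depended on single libraries. In NO vs GS it was 8, and 5 without NO replicate 2 or without GS replicate 2. Without NO replicate 2, Psat1, Chdh and Sdsl were lost, and without GS replicate 2, Folr2, Chdh and Sdsl. In NO vs DM it was 8, and 5 without NO replicate 2 or without NO replicate 3. Aldh1l1, Gatm and Mthfd1l were called in both comparisons when any 1 library was left out.

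Among 11149 protein-coding genes with a mean over 50, those whose log2 values over the 9 samples were most like those of Dmgdh were Cdx1, Sh2d4b and Ppic, with a Pearson r of 0.989, 0.987 and 0.98. Cdx1 had a mean of 632.3 normalised counts in GS medium, 19.3 in DM and 49.7 in NO. For Tdh they were Tfcp2l1, Tyw3 and Slit2, with an r of 0.927, 0.925 and 0.92. Tfcp2l1, a transcription factor of naive pluripotency, had means of 31053, 11299 and 13316. These are descriptions of 9 libraries in 3 media.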

How the data were processed

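Total RNA of 9 mESC samples, 3 each in GS, DM and NO, was analysed. According to the methods and the submitters' processing notes, the authors removed ribosomal RNA, used an Ion Torrent Proton for sequencing, aligned reads to GRCm38 with STAR 2.4.0a and counted reads over exons with featureCounts 1.4.5-p1. Reads that overlapped several genes or aligned to several places were left out by the authors. DESeq2-normalised values are what the authors deposited. The deposited values are therefore a score, a scaled and rounded read count, so no count model was fitted. Genes with a mean over 5 over all samples (18156) were analysed as log2(value + 1) with limma 3.58.1 in R 4.3.3, in a single fit of the 9 samples with medium as the only term and a mean-variance trend. Genes were called at an adjusted p-value (Benjamini-Hochberg) below 0.05 with a change of 2-fold or more, as in the study. All tests were two-sided. The scale understates changes of low genes. Alternatives were other minimum means, pseudocounts and fold thresholds, quantile normalisation, equal totals, no trend, only the 6 samples compared, the replicate block and each replicate left out. A deposited column of sums was not used. The values of 1 pathway gene, which is in the counts, are not reported here. The fit and the depth estimate, made from the spacing of low values, were tested on simulated data.

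Members and lists were chosen with earlier results of these data known. The text names all members, up to 6 called pathway genes a comparison by smallest adjusted p-value, tested genes within 200 kb of Bhmt, Bhmt2 and Dmgdh, and the 3 genes most like Dmgdh and Tdh. Other genes are given to complete a pathway step or, where stated, were named after their values were seen. The methods describe RNA from 1 dish for each sample. Neither they nor the labels say whether dishes of a medium came from independent cultures, so p-values measure the spread between these samples. Same-numbered samples deviated together in NO vs DM, with correlations of deviations from the group means of 0.159, 0.167 and 0.296 for numbers 1, 2 and 3. They did not in DM vs GS (-0.178, 0.022 and -0.232) or NO vs GS (-0.046, 0.05 and -0.106). The labels do not say whether a number marks a shared culture, so any pairing in NO vs DM rests on these values alone. The main fit did not pair samples. The replicate block, an alternative, was fitted to all 9 samples and so pairs GS as well. Lengths and coordinates came from GENCODE M21, and promoter windows from RefSeq (GRCm38.p6), which matched 9 of the 10 members.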

Additional observations from a re-analysis of the deposited data

How the results depend on the processing

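The fold changes of the called members kept their sign in all 18 alternatives each. With the replicate block, 2 members were called in NO vs DM in place of 1, and Folr2 was lost and Sdsl gained there, and no other member or pathway call changed. With only the 6 samples compared, 912 of all genes were called in NO vs DM in place of 1552, and 1 pathway gene in DM vs GS in place of 0. With no minimum mean 1 pathway gene was called in DM vs GS. With a minimum mean of 50 all genes called were 505, 1206 and 936 in DM vs GS, NO vs GS and NO vs DM, against 763, 2127 and 1552, and pathway genes 3 over GS and 4 over DM for NO, since fewer genes were tested. Without the trend, 5 pathway genes were called in NO vs DM.

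With no minimum fold change, all genes called were 1215, 3640 and 2587, members 5 over GS and 4 over DM for NO, and pathway genes 1, 16 and 14. With a minimum log2 fold change of 2, all genes called were 242, 926 and 660, members 0 over GS and 0 over DM for NO, and pathway genes 4 and 4. Quantile normalisation moved the median of all genes in NO vs GS from -0.016 to -0.115 and the share of higher calls from 86.0% to 67.5%, and for NO vs DM from 79.3% to 65.1%. It moved no called member across the thresholds. The cause was not tested.

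With each library left out in turn, all genes called ranged from 509 to 962, 1455 to 2831 and 806 to 2512 in the same order of comparisons, members from 3 to 3, 3 to 6 and 1 to 4, and pathway genes from 0 to 1, 5 to 12 and 5 to 11. In NO vs DM the extremes for all genes were 806 without NO replicate 2 and 2512 without NO replicate 1. With 3 samples a medium and single reads worth up to 1.32 normalised counts, differences of Sardh, Chdh, Ftcd and Sdsl rest on few reads.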
